A study of Arabidopsis thaliana with 2 samples.

Results

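The family of plant UDP-glucosyltransferase genes was examined in roots of Arabidopsis thaliana after a short exposure to aluminium. Its members were taken as all non-control probes whose description on the array of replicate 1 contains "UDP-glucosyl", with 3 loci left out by that rule, and were matched to the array of replicate 2 by probe name. This gave 106 of the 21500 probes on both arrays, each for a different one of 20387 loci, and the rule reads no measured value. RefSeq's gene table of assembly TAIR10.1 lists all 106 loci and gives 56 of them a numbered UGT name. The others are called by their locus, or by another symbol where RefSeq gives one.

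Seedlings of the Col-0 accession were raised in hydroponics for 10 days in dilute MGRL nutrient solution at pH 5.5. Their roots were then kept for 6 h at pH 5.0, in the one group with 10 µM AlCl3 and in the other with no aluminium, so that the acidity and the 6 h of handling were shared by both groups. Each of the 2 arrays carried the aluminium RNA and the control RNA of 1 biological replicate in different dyes. On replicate 1 the aluminium RNA carried Cy3 and on replicate 2 it carried Cy5, so that dye, array layout and replicate cannot be told apart. The comparison asks which members of the family differed in transcript level between aluminium-treated and control roots.

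UDP-glucosyltransferases move a sugar, in most cases glucose, from a nucleotide sugar onto a small molecule. Their acceptors include hormones such as auxin, cytokinin and abscisic acid, phenylpropanoids and flavonoids, glucosinolate precursors and foreign chemicals, and the sugar makes the acceptor more soluble and fit for storage in the vacuole. In the gene names the first number gives the family, the letter the subfamily and the last number the gene. Since family stands here for all members, genes that share the first number are called a subfamily below. Those that also share the letter are called a group, such as UGT73C. Many members lie side by side in the genome as tandem copies.

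In the 4 channels, the median signal of the members was 4.59 to 6.51 times its background, where all probes had 4.60 to 8.62. In each channel, 92.5% to 96.2% of the members were well above background, and no member was saturated. Of the 106 members, 103 were tested. UGT73C1, AT2G36780 and AT3G21790 were not well above background in any of the 4 channels, and no fold is given for them. All 8 root markers were well above background in all 4 channels, as were 6 of 7 green shoot markers, the exception being PSAL, which was dim on replicate 1. The summed signal of the root markers was 28358 and 37701 in the aluminium RNA of replicates 1 and 2, against 17758 and 30865 in the control RNA, and NRT2.1 alone made up most of it. Without NRT2.1, left out after its values were seen, the other 7 summed to 4754 and 3623 in the aluminium RNA, against 7454 and 6507 in the control RNA, the opposite direction. The median ratio of the 8 root markers was -0.47. The summed signal of the shoot markers was 8258 and 5220 in the aluminium RNA of replicates 1 and 2, against 8719 and 5371 in the control RNA, and 1 of the 7 (CA1) was lower in the aluminium RNA. Of the root markers, EXPA7 (-1.73 ± 0.14), COBL9 (-0.52 ± 0.13), TIP2;3 and SHR fell and NRT2.1 rose. PRP3 had opposite signs on replicates 1 and 2 (-0.05 and 0.48) and did not pass, nor did SCR (-0.27 ± 0.20) and SMB (-0.45 ± 0.29). The part of root cell types in the results below was not tested. In whole roots, fewer cells of a type and less RNA per cell cannot be told apart.

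Ratios are given on the log2 scale as aluminium over control, as the mean ± SD of both arrays (n = 2), and a change is called where limma's adjusted p over all 19552 genes tested is under 0.05. By this rule 12 members rose, 10 fell and 81 did not pass. The 12 higher members were 11.7% of the 103 tested, where 8.19% of all genes tested were called higher, and the 10 lower members were 9.71%, where 6.42% of all genes were called lower. Both shares in the family were a few percentage points above those of the array as a whole, and no test of that difference was made. The median ratio of the tested members was 0.049, against 0.00041 for all genes. Most ratios were small, since 77 of the 81 members that did not pass had a mean ratio within 0.5 of 0, and 64 of them within 0.25.

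**Figure D1:**
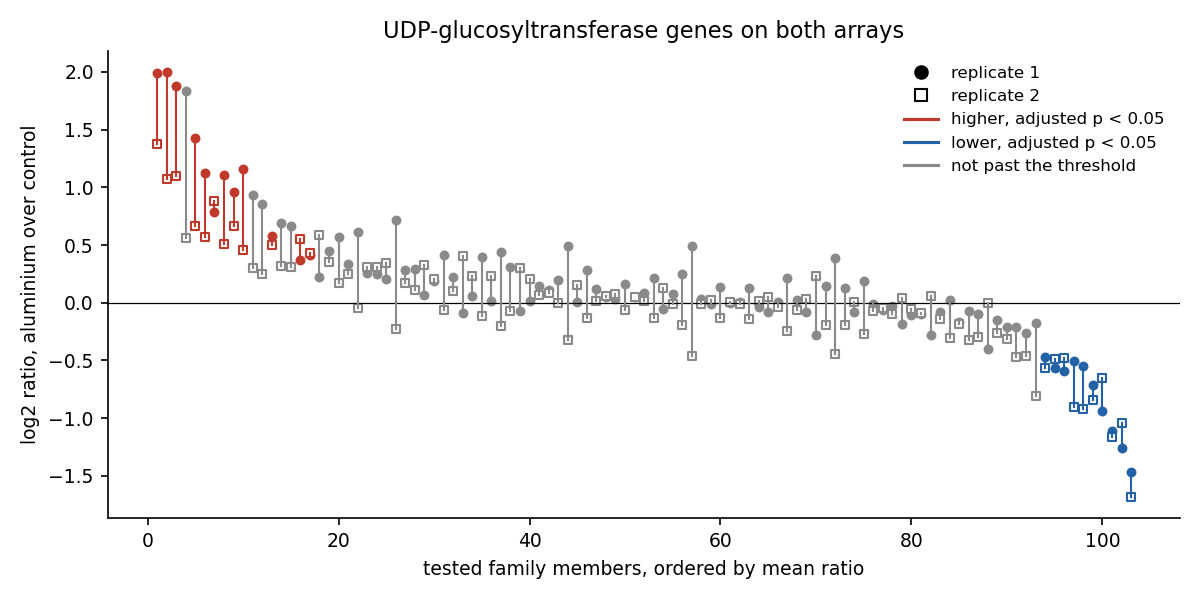
Each of the 103 tested members is drawn by its log2 ratio of aluminium over control on replicate 1 (filled circle) and replicate 2 (open square), in order of the mean ratio. The 12 members in red and the 10 in blue passed an adjusted p of 0.05, and most of the others lie within 0.5 of 0.

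On each array at least 2-fold higher were 3 members (2.91% of those tested, where 1.61% of all genes were), and at least 2-fold lower were another 3 (2.91%, where 0.875% of all genes were). On replicate 1 alone 8 members were at least 2-fold higher, where 3.15% of all genes were, and on replicate 2 alone 3 were, where 1.90% of all genes were. Among the 12 members that rose, 9 had the larger ratio on replicate 1, as did 71.3% of the 1601 genes that rose over the whole array. Among the 10 that fell, 4 were farther from 0 on replicate 1, against 52.5% of the 1256 genes that fell. The ratios of 37 tested members (35.9%) had opposite signs on the 2 arrays, against 28.9% of all genes. None of the 22 called members was among them. The same held for all 1601 and 1256 genes called over the whole array, so it follows from the call.

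**Figure D2:**
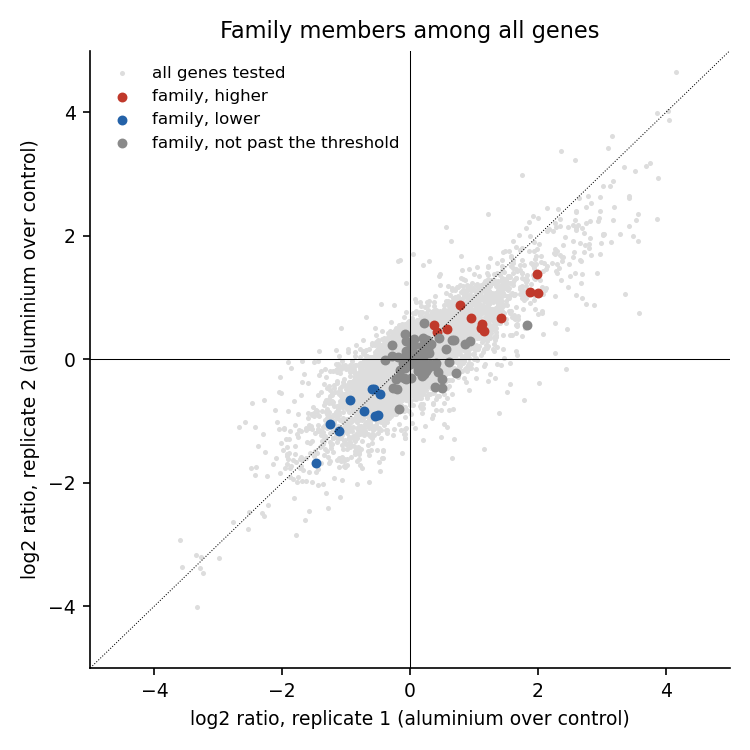
The log2 ratio of aluminium over control on replicate 1 (horizontal) is set against that on replicate 2 (vertical) for all 19552 genes tested (light grey) and for the family (coloured). Family members lie between -1.57 and 1.68 in the mean, well inside the range of the array. Called members fall in the quadrants where both arrays have the same sign, as do all called genes.

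The calls depend on how the ratios were made. The same limma test on the scanner software's own ratios called 0 members higher and 1 lower, UGT74E2. Of all genes it called 0.419% higher and 0.292% lower. On the authors' series matrix values it called no member, and 0% of all genes in either direction. At an unadjusted p under 0.05 in limma were 36 members in either case, beside 5201 and 5048 of all genes. With the ratios used here it was 38 members and 5904 of all genes. All 22 called members kept their direction under each of these settings. Several members that did not pass had larger ratios there: UGT84A3 had 0.89 and 0.98 from the scanner software and the series matrix, UGT73C5 0.59 and 0.71, UGT78D3 0.53 and 0.59 and AT5G49690 0.93 and 0.95. None of these passed in those settings either. On replicate 1, UGT84A3 and UGT73C5 were not well above background in the control channel, and UGT78D3 in neither channel.

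The members that rose were led by AT2G22590, which the array of replicate 1 describes as a glycosyltransferase family protein and which matched the rule through the name of its protein domain. Its log2 signal was 9.53 and 10.43 in the aluminium RNA of replicates 1 and 2, against 7.54 and 9.06 in the control RNA. The groups did not overlap, and its ratio of 1.68 ± 0.44 is 3.21-fold (adjusted p = 0.00624). UGT87A2 (AT2G30140), whose product is known from the control of flowering time and from stress tolerance, had signals of 10.02 and 10.47 in the aluminium RNA of replicates 1 and 2, against 8.02 and 9.39 in the control RNA, again without overlap. Its ratio was 1.53 ± 0.66, or 2.9-fold (adjusted p = 0.0157), and it was one of the 4 members whose arrays differed most, with 2.00 and 1.07 on replicates 1 and 2. UGT76D1 (AT2G26480), whose enzyme glucosylates the dihydroxybenzoic acids formed when salicylic acid is broken down, had signals of 10.01 and 9.80 in the aluminium RNA of replicates 1 and 2, against 8.13 and 8.70 in the control RNA. Both aluminium values lay above both control values, and the ratio was 1.49 ± 0.55 (adjusted p = 0.0125). These were the 3 members at least 2-fold higher on each array.

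A second set of higher members belonged to subfamily UGT73. UGT73B4 (AT2G15490), whose enzyme can glucosylate nitroaromatic pollutants, had signals of 10.62 and 10.18 in the aluminium RNA of replicates 1 and 2, against 9.19 and 9.52 in the control RNA, and a ratio of 1.05 ± 0.54 (adjusted p = 0.0274). Its neighbour UGT73B5 (AT2G15480), known from defence against bacteria and redox stress, had 1.11 and 0.51 on replicates 1 and 2, a mean of 0.81 (adjusted p = 0.0336). For UGT73B2 the ratios were 1.16 and 0.46 (adjusted p = 0.0456), and its mean was 1.28 from the series matrix, over 1.5 times the value here. In these 3 genes the aluminium and control signals did not overlap, and replicate 1 gave over 2 times the ratio of replicate 2. Without replicate 1 their ratios are 0.66, 0.51 and 0.46 in the order above, each over 1.5 times smaller than the mean, with no test. UGT73D1 (AT3G53150) was steadier, with 0.79 and 0.88 on the 2 arrays and a mean of 0.83 ± 0.067 (adjusted p = 0.00868).

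The other higher members changed by less. AT5G53990 had 0.85 ± 0.40 and AT5G12890 0.81 ± 0.21, neither with a known acceptor in the sources used here. UGT71B6 (AT3G21780), whose enzyme glucosylates abscisic acid, had signals of 8.38 and 7.23 in the aluminium RNA of replicates 1 and 2, against 7.81 and 6.73 in the control RNA. Its channels shifted by array more than by treatment and the groups overlapped in signal, but within each array aluminium was higher and the ratio was 0.54 ± 0.055, or 1.45-fold (adjusted p = 0.0247). Its size varied with the processing, at 0.84 from the ratios of the scanner software and 1.31 from the series matrix, both over 1.5 times the value above. UGT84A1, which makes glucose esters of hydroxycinnamic acids, had 0.46 ± 0.13 and overlapped in signal in the same way. UGT76C1, a cytokinin N-glucosyltransferase, had 0.42 and 0.43 on the 2 arrays, the smallest mean ratio among the members that rose (adjusted p = 0.0422).

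The members that fell were led by UGT74E2 (AT1G05680), whose enzyme glucosylates the auxin indole-3-butyric acid. Its log2 signal was 7.69 and 8.32 in the aluminium RNA of replicates 1 and 2, against 9.16 and 10.00 in the control RNA, without overlap, and its ratio of -1.57 ± 0.15 means 2.98-fold lower (adjusted p = 0.00299). AT5G05890 had signals of 8.33 and 8.05 in the aluminium RNA of replicates 1 and 2, against 9.58 and 9.09 in the control RNA, and a ratio of -1.15 ± 0.15 (adjusted p = 0.0054). UGT84A4 (AT4G15500), a hydroxycinnamate glucosyltransferase like UGT84A1, had signals of 9.11 and 8.92 in the aluminium RNA of replicates 1 and 2, against 10.22 and 10.08 in the control RNA. Its arrays lay close together at -1.11 and -1.16, or 2.2-fold lower in the mean (adjusted p = 0.00451). These 3 were the members at least 2-fold lower on each array.

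Further members fell by less than 2-fold. UGT73B1 (AT4G34138) had -0.93 and -0.65 on replicates 1 and 2 and a mean of -0.79 ± 0.20 (adjusted p = 0.0142). UGT74D1 (AT2G31750), which glucosylates auxin, had 10.12 and 9.54 in the aluminium RNA of replicates 1 and 2, against 10.84 and 10.38 in the control RNA, and a ratio of -0.78 ± 0.089 (adjusted p = 0.0105). In both genes each aluminium signal was below each control signal. Of subfamily UGT71, UGT71C1 had -0.54 and -0.92 and UGT71B1 -0.51 and -0.90 on replicates 1 and 2, the signals of UGT71B1 overlapping between groups, with replicate 1 brighter in both channels. UGT85A2 (-0.54 ± 0.075), AT5G05900 (-0.53 ± 0.059) and AT1G10400 (-0.52 ± 0.068) completed the list, with adjusted p-values of 0.0255, 0.0258 and 0.027. The 10 members that fell had a median SD of 0.12 between arrays and the 12 that rose 0.41, where all genes that fell had 0.12 and all that rose 0.13.

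**Figure D3:**
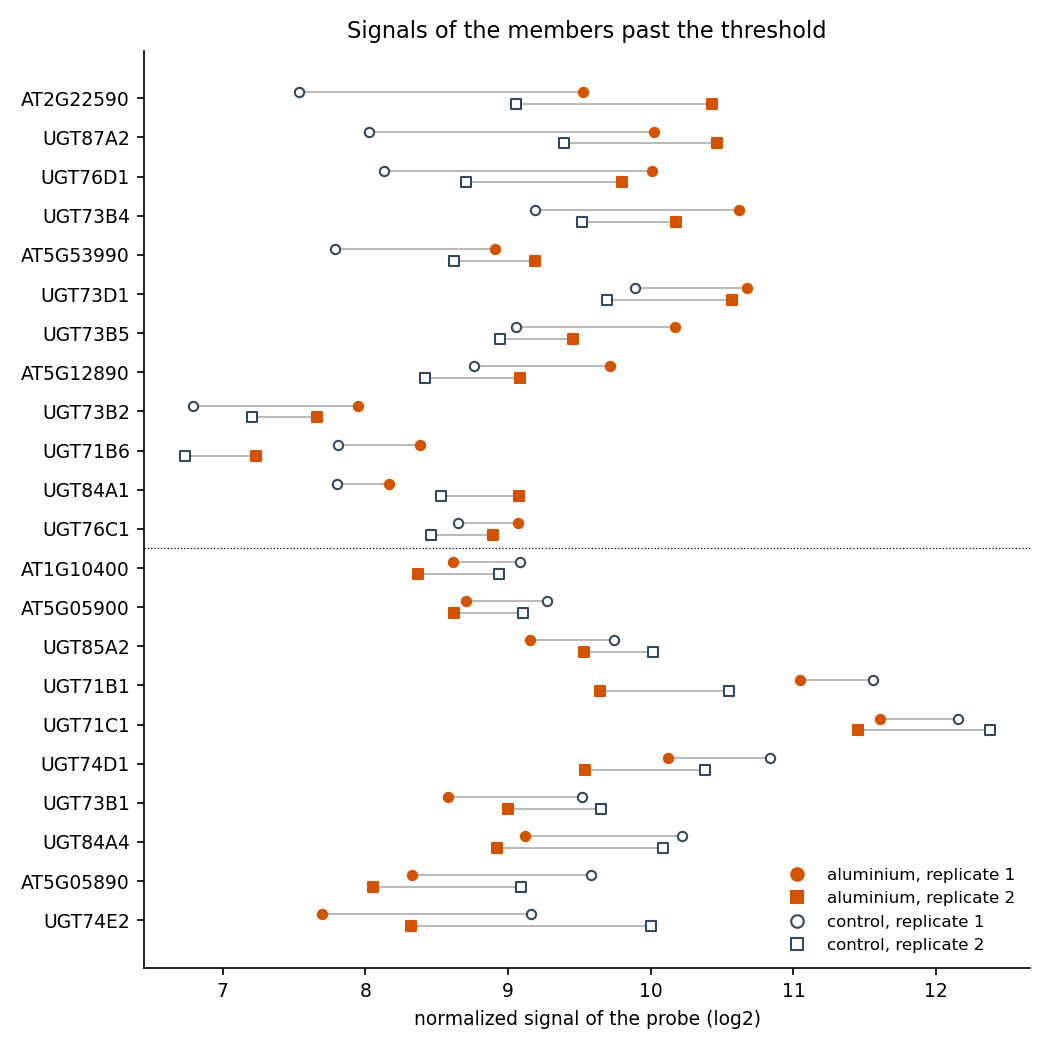
Normalized log2 signals of the 22 called members are drawn for the aluminium RNA (filled) and the control RNA (open) of replicate 1 (circles) and replicate 2 (squares), with the members that rose above the dotted line. A grey line joins the channels of 1 array. The aluminium mark is on the same side of the control mark on both arrays for each member, which holds for all called genes.

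By the number in the gene name, subfamily UGT73 held 4 of the members that rose and 1 that fell among 10 tested, with a median ratio of 0.71. The counts by subfamily cover only loci with a numbered name in RefSeq. The counts by subfamily and by list are small and stand beside 8.19% of all genes called higher and 6.42% called lower. UGT73C7, which glucosylates hydroxycinnamic acids, had the largest mean ratio of the subfamily at 1.20 ± 0.90, but with 1.84 and 0.56 on the 2 arrays it did not pass (adjusted p = 0.0577). It passed in limma with an intensity trend in the prior (adjusted p = 0.0472) and with median centring, where the prior gave all genes the same spread (adjusted p = 8.96e-05). UGT73B3, known with UGT73B5 from the response to bacteria, had 0.93 and 0.30 (adjusted p = 0.0737). The remaining tested members named UGT73, all of group UGT73C, lay close to 0 with the background correction used here. UGT73C2 had -0.013 ± 0.033, UGT73C6 0.049 ± 0.046 and UGT73C5 (DOGT1) 0.10 ± 0.14. The last of them was larger from the other ratios given above. Of the 5 genes listed for pathogen and oxidative stress, UGT73B1 to UGT73B5, 3 rose, 1 fell and 1 did not pass, with a median of 0.81. UGT71 was the other large subfamily, with 1 higher and 2 lower of 10 and a median of 0.019.

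Of the 3 tested members with a UGT74 name in RefSeq, UGT74E2 and UGT74D1 fell and 0 rose. Of members so named, UGT76 had 2 higher and 0 lower of 6. This count leaves out AT5G05880, AT5G05890 and AT5G05900, which have no numbered name but lie in the row that starts with UGT76C2. AT5G05890 and AT5G05900 fell. UGT84 had 1 higher and 1 lower of 6, and UGT85 had 1 lower of 5. No member passed among the 5 named UGT72, the 3 named UGT78 and the 2 each named UGT75 and UGT79. Of the 48 tested loci without a numbered name, 3 rose and 3 fell, with a median of 0.042. Those that rose were AT2G22590, AT5G53990 and AT5G12890, and those that fell were AT5G05890, AT5G05900 and AT1G10400. These loci were not assigned to a subfamily here, so the subfamily counts can be incomplete.

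**Figure D4:**
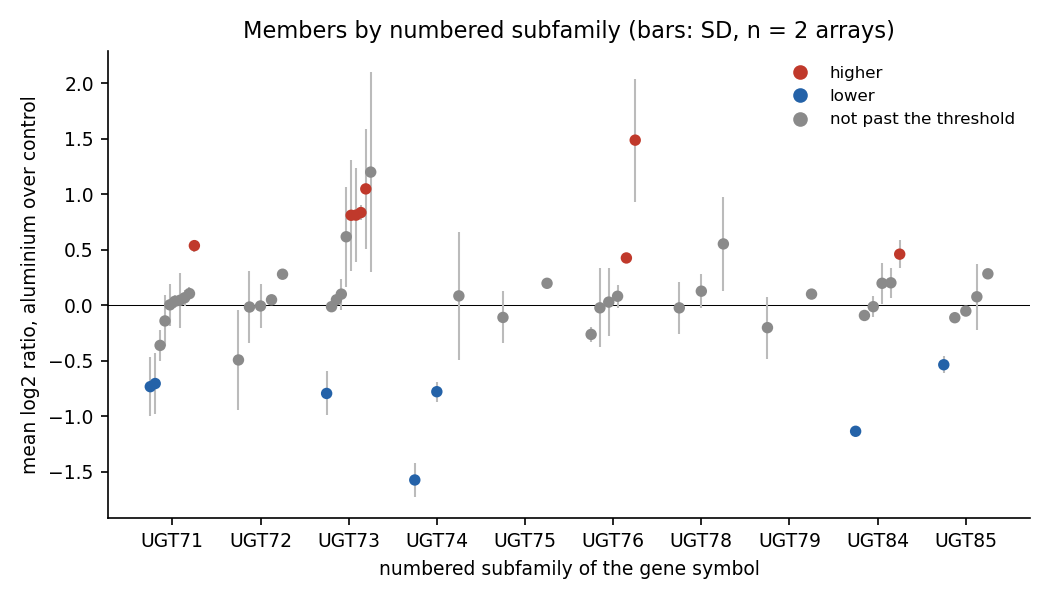
Mean log2 ratios of aluminium over control are drawn by subfamily for the tested members with a numbered UGT name. Subfamilies with at least 2 of them are shown, with bars for the SD over the 2 arrays. The 4 red members of UGT73 lie between 0.81 and 1.05, and the 2 blue members of UGT74 below 0.

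In the gene order of RefSeq, 44 members fell into 10 tandem groups of at least 3 members with no more than 2 other genes between neighbours. Called members lay in 6 of these groups, and in 4 of the 6 some members rose while others fell. These counts stand beside 21.4% of all tested members called and 14.6% of all genes, and no test of them was made. On chromosome 4, UGT73B1 and UGT73B2 are next to each other, and UGT73B2 rose (0.81 ± 0.50) while UGT73B1 fell (-0.79 ± 0.20), with UGT73B3 on the far side of UGT73B2. The group UGT84A1, UGT84A3 and UGT84A4, also on chromosome 4, had 0.46 ± 0.13, 0.20 ± 0.19 and -1.14 ± 0.04 in gene order, the first higher, the second not past the threshold and the third lower. From the scanner software and the series matrix UGT84A3 (0.89 and 0.98) had a larger ratio than UGT84A1 (0.54 and 0.51). The control channel of UGT84A3 on replicate 1 was not well above background. On chromosome 5, the 5 genes from UGT76C2 to AT5G05900 had 0.028 ± 0.31, 0.43 ± 0.013, -0.081 ± 0.035, -1.15 ± 0.15 and -0.53 ± 0.059. The cytokinin gene UGT76C1 rose there and the last 2 genes of the row fell.

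On chromosome 3, UGT71B1 fell and UGT71B6 rose, and between them HYR1, known from resistance to the compound hypostatin, had -0.06 ± 0.048. In the other groups with a call, UGT85A2 fell among the 5 UGT85A genes of chromosome 1 and UGT71C1 among 4 genes of chromosome 2. No member was called in the row of 7 genes around UGT76E11 and UGT76E12 on chromosome 3, where mean ratios ran from -0.024 to 0.40, nor in the UGT73C row of chromosome 2, the UGT71C3 to UGT71C5 row of chromosome 1 and the UGT78D row of chromosome 5.

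**Figure D5:**
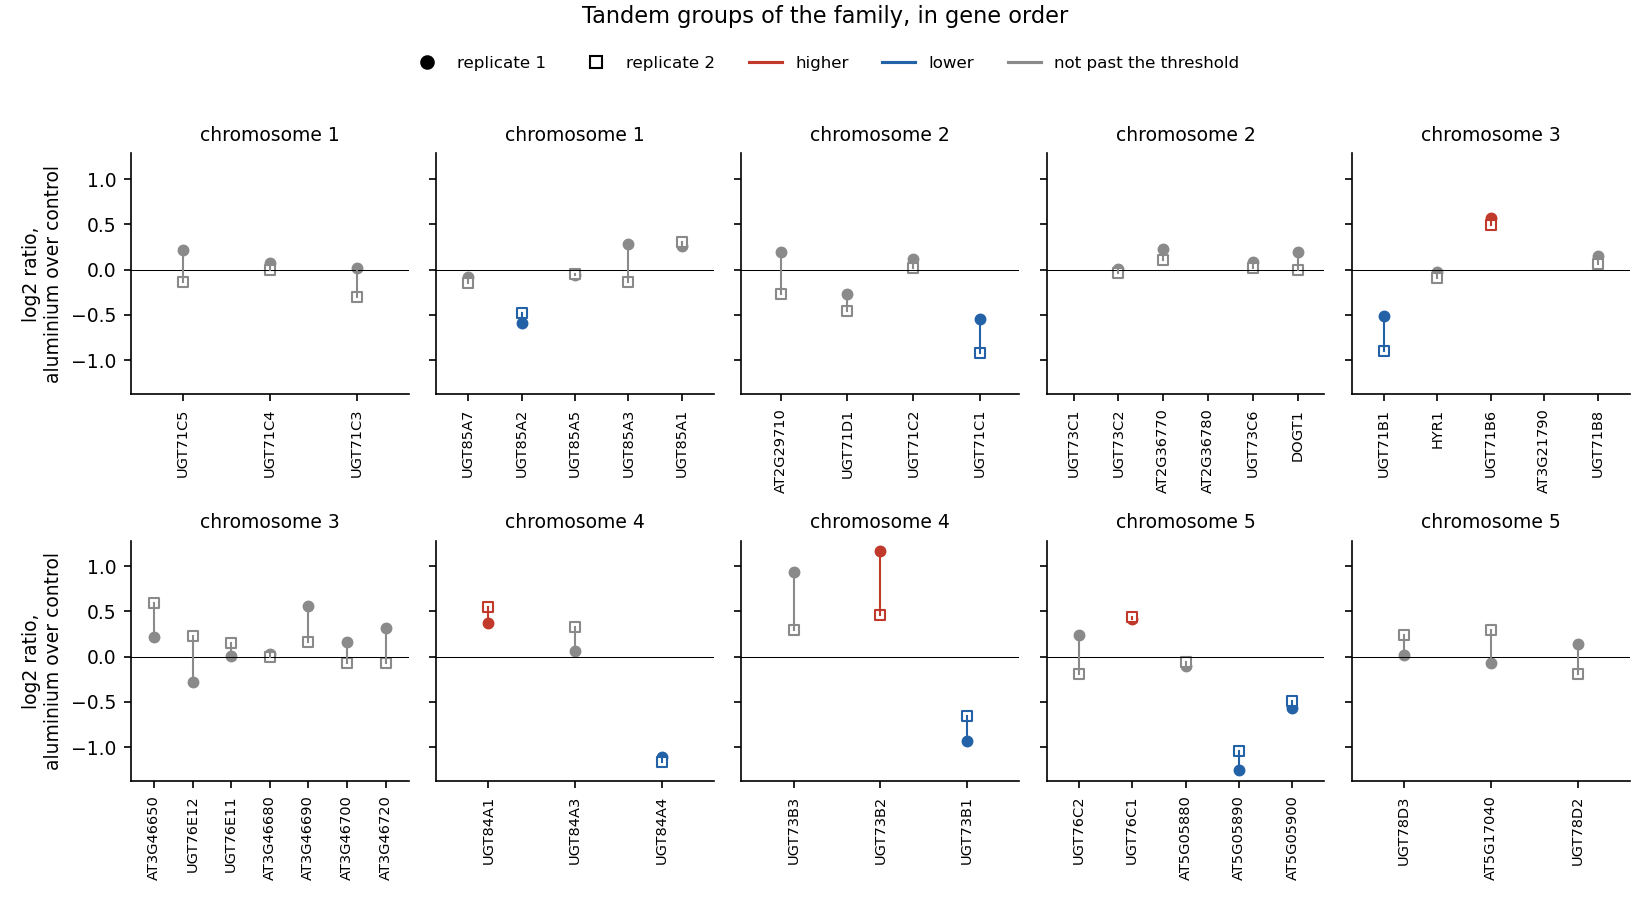
The 10 tandem groups are drawn in gene order, each gene by its log2 ratio of aluminium over control on replicate 1 (filled circle) and replicate 2 (open square). Red and blue marks occur together in 4 groups, and genes with no mark were not tested.

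Over the whole family, 31 pairs of directly neighbouring members could be compared. In 2 pairs both genes were called in the same direction (UGT73B4 with UGT73B5, and AT5G05890 with AT5G05900), in 1 pair in opposite directions (UGT73B1 with UGT73B2), in 12 pairs only 1 gene was called and in 16 none. Of all tested members 21.4% were called, and of all genes 14.6%. Whether neighbours differ from other pairs of members was not tested. On the log2 scale, the widest gap after that of UGT73B1 and UGT73B2 (1.60) was between UGT87A2 at 1.53 and its neighbour AT2G30150 at -0.036. The median gap between neighbours was 0.26. Tandem copies are similar in sequence, and the share of signal that a probe takes from a close copy was not tested.

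By hormone, the list of auxin glucosyltransferases held 4 loci, of which 3 are members by the rule. UGT74E2 and UGT74D1 fell, and UGT84B1, an indole-3-acetic acid glucosyltransferase, had -0.092 ± 0.0013 (adjusted p = 0.577). UGT75D1, on the list but no member by the rule, had 0.12 ± 0.13. Of 3 tested loci listed for abscisic acid, UGT71B6 rose, while UGT71B8 had 0.10 ± 0.058 and UGT71C5, another abscisic acid glucosyltransferase, 0.043 ± 0.25. For cytokinin, UGT76C1 rose, and UGT76C2 (0.028 ± 0.31) and UGT85A1 (0.28 ± 0.036), whose enzymes N- and O-glucosylate cytokinins, did not pass. UGT73C5 (DOGT1) and UGT73C6, which act on brassinosteroids, had adjusted p-values of 0.586 and 0.79.

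Of 8 listed monolignol and phenylpropanoid glucosyltransferases, UGT84A1 rose, UGT84A4 fell and 6 did not pass. UGT72E1, UGT72E2 and UGT72E3, which glucosylate the alcohols from which lignin is built, had -0.49 ± 0.45, -0.016 ± 0.32 and 0.049 ± 0.0027. UGT72E1 was negative on both arrays but uneven, with -0.18 and -0.81 (adjusted p = 0.122). UGT72B1, which acts on monolignols and chlorinated pollutants, had 0.28 ± 0.043, UGT84A2, which makes sinapoylglucose, 0.20 ± 0.13, and UGT84A3 0.20 ± 0.19.

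None of the 7 loci listed for flavonoid and anthocyanin glycosylation passed, with 0 higher and 0 lower and a median of -0.022. UGT78D1, a flavonol rhamnosyltransferase, had the largest ratio of them at 0.85 and 0.25 on the 2 arrays (adjusted p = 0.0878). UGT78D2, a flavonoid glucosyltransferase, had -0.024 ± 0.24 and UGT78D3, an arabinosyltransferase, 0.13 ± 0.15. UGT79B1 (UF3GT), an anthocyanin xylosyltransferase, had -0.20 ± 0.28, UGT79B6 0.10 ± 0.019, AT4G14090, which the array describes as similar to an anthocyanin glucosyltransferase, -0.022 ± 0.078, and AT1G06000 -0.026 ± 0.59. Of 6 tested genes of flavonoid synthesis itself, with a median of 0.29, 0 rose and 0 fell: CHI had 1.15 and 0.39 on the 2 arrays (adjusted p = 0.0582), F3H 0.37 ± 0.013, FLS1 0.37 ± 0.55, F3'H 0.21 ± 0.35, the chalcone synthase gene CHS 0.075 ± 0.51 and LDOX -0.082.

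In the glucosinolate list, UGT74B1, which forms desulfoglucosinolates, was of opposite sign on the arrays (0.49 and -0.33), as was AT2G31790 (0.44 and -0.20). UGT75B1, known from callose formation at the cell plate and from p-aminobenzoate storage, had 0.20 ± 0.015, and UGT75B2 -0.11 ± 0.23. Of the other listed members, UGT87A2 and UGT76D1 rose, as above. UGT89B1 (0.29 ± 0.059), UGT88A1 (-0.04 ± 0.045), AT5G49690 (0.48 ± 0.25), AT2G30150 (-0.036 ± 0.058) and AT4G27570 (0.14 ± 0.36) did not pass. AT4G27560 was one of the 4 members whose arrays differed most, at 0.71 and -0.23, and AT3G55700 another, at 0.49 and -0.46. In both genes the arrays had opposite signs, and the mean ratios were 0.24 and 0.015.

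The enzymes that supply the sugar donor changed in both directions, with 4 of 22 tested genes higher, 3 lower and 15 not past the threshold (14.6% of all genes were called in either direction). Their median ratio was 0.13. SUS1, a sucrose synthase that makes UDP-glucose from sucrose, had 1.26 ± 0.24 (adjusted p = 0.00574). The 2 cytosolic UDP-glucose pyrophosphorylase genes, which make UDP-glucose from glucose 1-phosphate, both fell, UGP1 with -0.59 ± 0.079 (adjusted p = 0.0204) and UGP2 with -0.56 ± 0.065 (adjusted p = 0.0225). Of the UDP-glucose dehydrogenase genes, UGD2 rose (0.66 ± 0.31) and AT5G39320 (UDG4 in RefSeq) fell (-0.49 ± 0.13). The epimerase genes UGE2 (0.62 ± 0.16) and UGE5 (0.52 ± 0.0039), whose enzymes interconvert UDP-glucose and UDP-galactose, rose. The smallest p-values among the genes that did not pass were those of UGE4 (0.30 ± 0.046), RHM1 (0.55 ± 0.49) and SUS3 (0.26 ± 0.18).

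Genes of TGA bZIP and NAC factors and SCL14 were listed because several UGT genes are known from the response to foreign chemicals. Whether each listed gene has a part in that response was not tested. Of 10 tested, 4 rose, 1 fell and 5 did not pass, with a median ratio of 0.40, against 0.00041 for all genes, of which 8.19% were called higher and 6.42% lower. The list held 11 genes, and TGA4 was not tested because of an outlier mark (-0.44 and -0.80 on replicates 1 and 2). The NAC factor genes ATAF1 (1.17 ± 0.088, adjusted p = 0.00453), NAC102 (0.76 ± 0.12) and NAC032 (0.72 ± 0.20) and the bZIP gene TGA7 (0.86 ± 0.16) rose, and TGA1 fell (-0.63 ± 0.19). TGA2, TGA5 and TGA6, the bZIP factors that act with SCL14 in this response, had 0.0043 ± 0.11, 0.32 ± 0.06 and 0.096 ± 0.045, and SCL14 0.29 ± 0.17, none past the threshold. TGA3 had 0.68 and 0.29 on the 2 arrays (adjusted p = 0.0666).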

How the data were processed

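Each deposited scanner file holds raw intensity readings of both channels for 1 array, made per the file headers with Agilent Feature Extraction 8.1.1.1 (replicate 1) and 7.1.1 (replicate 2), while the submitters' processing notes name 9.5.1.1. Per the file headers they also hold a log10 ratio of the dyes, Cy5 over Cy3. The authors' series matrix holds log2 values for 20346 probes whose scale and direction (aluminium over control) were found against the scanner ratios (r = 0.998 and 0.887, medians -0.0103 and -0.0112). Its centring is unknown.

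Here the mean signal of each spot was background-corrected with normexp (offset 50) and normalized by loess within arrays in limma 3.58.1 (R 4.3.3), with replicate 1 turned. The channel signals shown were further set to a common quantile scale. They entered no test, so overlap or its absence between the groups only describes them and is no support beside the call. Probes with an outlier mark (108), probes dim in at least 1 channel on each array (746) and probes without a locus shared by both layouts (1094) were left out, and the other 19552 genes were tested against 0 with lmFit and eBayes (1 residual degree of freedom, a prior of 4.14), two-sided, with Benjamini-Hochberg adjustment. On simulated data the test recovered the larger changes, and in some runs the share of false calls was above the nominal level. An exact sign-flip test on 2 arrays cannot go under p = 0.5. Whether the replicates came from separate cultures is not stated beyond the word biological. The p-values therefore measure the spread between these arrays, which the prior takes mostly from all genes (4.14 against 1 residual degree of freedom). The number of arrays limits the precision.

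The family was picked, and the lists drawn up, with earlier results of these data known, although the rule for members reads only the array descriptions. Named were all 12 higher and 10 lower members, every listed member, the 4 members whose arrays differ most and called or nearest genes of the other lists. Gene order was taken from the RefSeq table named at the start, and no coordinates are given. Alternatives covered background correction, offset, normalization, filters, the variance prior, the series matrix and leaving out an array.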

Additional observations from a re-analysis of the deposited data

How the results depend on the processing

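All 22 called members kept their direction under each alternative. With 1 array left out this followed from the call, since all called genes had the same sign on both arrays. The other alternatives use the same 2 arrays, so the kept direction is no separate support. With no background correction 21 of them stayed called, and with no filter on dim probes or all kept probes all 22. An intensity trend in the prior kept all 22 and called 15 higher in all. With median centring 15 stayed called (10 higher in all, 6 lower, and 1 at least 2-fold lower on each array), in a fit whose prior gave all genes the same spread. Of all genes, that fit called 4.18% higher and 2.75% lower, and 0.926% were at least 2-fold lower on each array. An offset of 10 left 6 higher and 5 lower, with 5.04% of all genes higher and 3.41% lower. With the offset of 50 these shares of all genes were 8.19% and 6.42%. The scanner software's ratios gave 0 higher and 1 lower in limma, where 0.419% and 0.292% of all genes were called. The series matrix values gave 0 and 0, with 0% and 0% of all genes, and a member median of 0.11. In either case 36 members had an unadjusted limma p under 0.05, beside 5201 and 5048 of all genes. The cause of the loss of calls was not tested. UGT73B2 had a ratio of 1.28 with the series matrix values. Without 1 array there is no test: over the arrays, the count of members at least 2-fold higher was 3 to 8 and of those at least 2-fold lower 3 to 3, and the member median was 0.0051 to 0.081. The test is already within replicates, since each array holds both RNAs of 1 replicate, and no unpaired fit was made. The 3 dim members are limited by signal over background.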
